A study of Mus musculus with 47 samples.

Results

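Glutamate and GABA receptor subunits are the proteins through which neurons of the cerebral cortex receive their main excitatory and inhibitory signals. The genes described here are the rows of the deposited tables whose gene name matched a fixed set of patterns for ionotropic glutamate receptors (Gria, Grin, Grik, Grid), metabotropic glutamate receptors (Grm), GABA-A subunits (Gabra, Gabrb, Gabrg, Gabrd, Gabre, Gabrq, Gabrr) and GABA-B subunits (Gabbr). The patterns found 46 genes among 48795 rows. Of these, 41 had enough counts to be tested with 19174 genes in all, and Grm6, Gabra6, Gabrr1, Gabre and Gabrr3 did not.

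RNA was sequenced from the dissected cerebral cortex of 47 C57BL mice, all aged 6 months. Wild type (WT) mice, mice with 1 Ccdc82 copy lost (Ccdc82+/-) and mice with both lost (Ccdc82-/-) carried no Q140 allele, and 3 further groups carried it alone (Q140), with Ccdc82+/- or with Ccdc82-/-. Q140 is a knock-in allele of Htt with an expanded CAG repeat, a model of Huntington's disease, and the titles give it as heterozygous. Females and males were equal in number (4 of each) in every genotype but Q140 with Ccdc82-/-, where 3 females and 4 males were sequenced. Which stretch of Ccdc82 is deleted was not stated in the labels. Nothing in the labels says how mice were shared between litters, so the tests measure the spread between the mice as titled. The main fit takes the 47 mice as independent, which the labels do not establish.

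AMPA receptors (Gria1 to Gria4) carry fast excitatory current, and NMDA receptors pair the obligatory subunit encoded by Grin1 with Grin2 or Grin3 subunits and admit calcium. Kainate (Grik) and delta (Grid) receptors complete the ionotropic glutamate family, and the metabotropic receptors act through G proteins: group I (such as Grm5) stimulates phospholipase C, while groups II (Grm2, Grm3) and III (Grm4, Grm6, Grm7, Grm8) lower cyclic AMP and often sit on axon terminals. GABA-A receptors are chloride channels built mostly from alpha, beta and gamma subunits, with delta, the product of Gabrd, replacing gamma in receptors outside the synapse that give a lasting (tonic) inhibition. GABA-B receptors are pairs of the Gabbr1 and Gabbr2 products and act through G proteins.

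Library totals ran from 43554594 to 61370843 counts, with a median of 50473683. Ccdc82 followed its labels: it stood at 16.2 ± 1.58 CPM (counts scaled to library size; SD, n = 8) in WT, 10.9 ± 0.962 in Ccdc82+/- and 5.31 ± 0.595 in Ccdc82-/-, and at 15.6 ± 0.996, 11.4 ± 0.875 and 5.51 ± 0.426 in the Q140 groups of the same Ccdc82 genotypes. The libraries held markers of cortical neurons, with a summed level of 5 excitatory neuron markers from 804 to 916 FPKM (fragments per kilobase of gene length, scaled to library size), and little of cerebellum, whose 5 markers summed to between 0.125 and 1.13 FPKM.

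The promoters of the receptor genes differed widely in sequence, and 4 are printed because they pair high and low levels of RNA with many and few CG pairs. Grin1, the obligatory NMDA subunit, was among the most abundant (77.4 FPKM in WT) and has 27 CG pairs in the 250 bases before its annotated start (chr2:25319188-25319437, minus strand). Gabra3, an alpha subunit at 38.4 FPKM, has 0 (chrX:72656920-72657169, minus strand), as has its other entry (chrX:72656808-72657057). Gabra6, an alpha subunit known from cerebellar granule cells and at 0.0422 FPKM here, has 2 (chr11:42321073-42321322, minus strand). Gabrq, the theta subunit at 0.0626 FPKM, has 19 (chrX:72824928-72825177, plus strand). The sequences are RefSeq's on GRCm38.p6, written 5′ to 3′ on the gene's strand, with every CG in capitals.
Grin1: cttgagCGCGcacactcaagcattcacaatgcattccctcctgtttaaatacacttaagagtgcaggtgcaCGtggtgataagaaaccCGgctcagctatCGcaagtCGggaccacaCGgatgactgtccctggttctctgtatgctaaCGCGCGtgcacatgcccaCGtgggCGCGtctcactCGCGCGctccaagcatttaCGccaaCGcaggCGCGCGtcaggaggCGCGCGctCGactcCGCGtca
Gabra3: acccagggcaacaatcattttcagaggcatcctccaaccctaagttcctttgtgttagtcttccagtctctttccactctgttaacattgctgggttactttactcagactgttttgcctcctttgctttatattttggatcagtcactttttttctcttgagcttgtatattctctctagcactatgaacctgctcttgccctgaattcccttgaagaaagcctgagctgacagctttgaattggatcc
Gabra6: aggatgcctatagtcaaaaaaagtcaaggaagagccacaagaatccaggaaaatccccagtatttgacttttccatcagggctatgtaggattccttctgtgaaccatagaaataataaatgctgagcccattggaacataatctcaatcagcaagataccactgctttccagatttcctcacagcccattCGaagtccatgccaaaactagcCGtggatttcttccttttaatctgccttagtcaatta
Gabrq: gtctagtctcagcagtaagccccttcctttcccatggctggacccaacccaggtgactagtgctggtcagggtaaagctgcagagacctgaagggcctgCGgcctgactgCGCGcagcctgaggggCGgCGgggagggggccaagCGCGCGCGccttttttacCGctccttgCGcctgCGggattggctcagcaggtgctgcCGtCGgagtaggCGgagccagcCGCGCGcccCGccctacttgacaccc

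RefSeq entries matched 31 of the 46 genes, with 33 entries for the 26 tested genes and 5 for the 5 under the filter. For 28 of the 38 entries the last 30 bases, which lie after the start, were found in a GENCODE M21 transcript of the gene. Those of the printed Gabra3 entry were not, and those of its other entry were. Entry by entry the median was 9 CG (from 0 to 42) for the tested genes and 4 (from 2 to 21) for the others, against 6 over all 32851 promoters of the table. At least 10 CG were found in 15 of the 33 entries of tested genes (45.5%), in 1 of the 5 others and in 37.8% of all promoters. CG is its own complement, so a count on 1 strand covers both. Genes with no entry included Gabrd, Gria1, Gria3, Grid1, Grik1, Grin2a, Grin2b, Grin3a, Grm4 and Grm5.

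In WT cortex the receptor genes spanned a wide range, from 107 ± 1.49 FPKM (SD, n = 8) for Gabbr1 to 0.00307 for Grm6, the receptor of retinal bipolar cells. The mean was 50 FPKM or more for 5 genes, 10 or more for 26, 1 or more for 37 and below 1 for 9. Others among the most abundant were Grin1 at 77.4 ± 2.97 FPKM, Gabbr2 at 65.2 ± 2.31 and Gria2, the AMPA subunit that limits calcium entry, at 53.9 ± 1.64. The ranges of these 4 genes over the 8 WT mice did not overlap each other. Over the whole order the ranges of 34 neighbouring pairs overlapped and those of 11 did not.

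**Figure D1:**
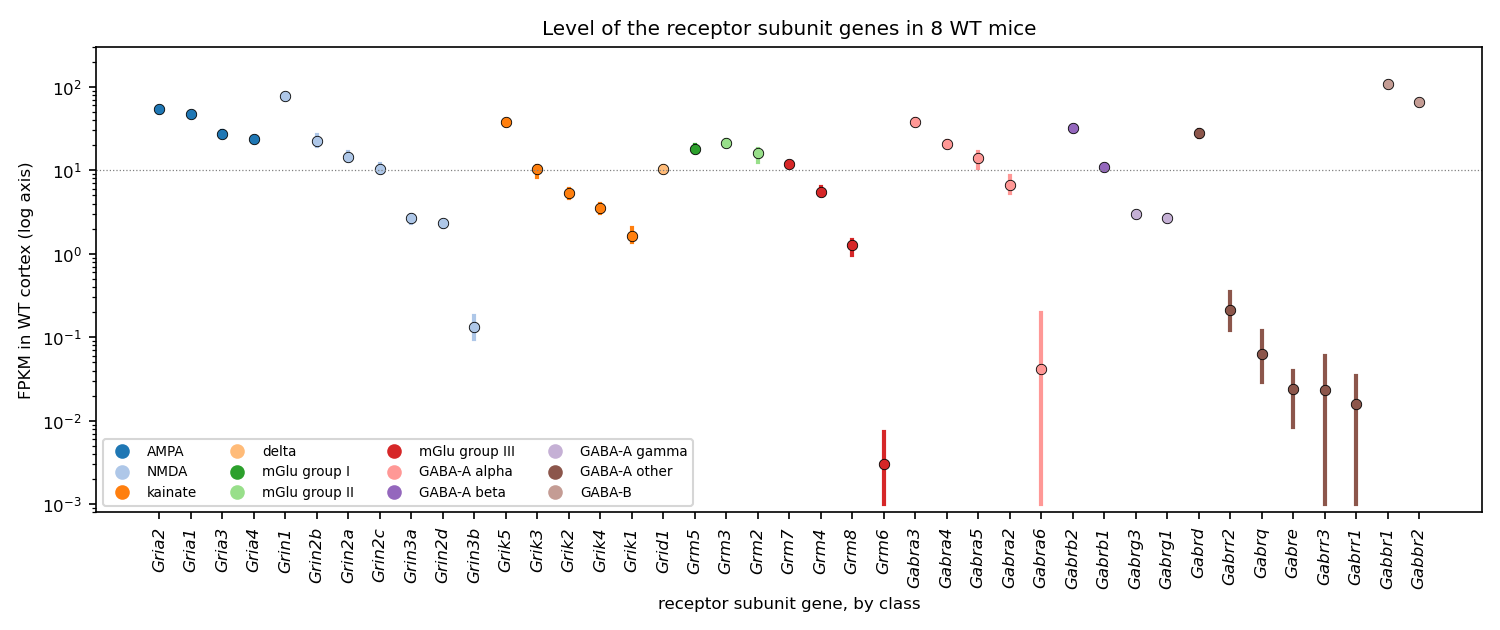
FPKM of 41 receptor genes in 8 WT mice on a log axis, grouped by receptor class; points are means, bars run from the lowest to the highest mouse, and the downward bars of Grm6, Gabra6, Gabrr3 and Gabrr1 are cut short since at least 1 mouse was listed at 0. Gabbr1 is highest at 107 FPKM, and Grin3b, Gabra6, Gabrr1, Gabrr2, Gabrr3, Gabre, Gabrq and Grm6 lay below 1 FPKM.

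Within the AMPA class the order was Gria2 (53.9), Gria1 (47.8), Gria3 (27.5) and Gria4 (23.8 FPKM), and the ranges of neighbours did not overlap. Among NMDA subunits Grin2b, which dominates early in life, stood at 22.2 ± 2.20 FPKM and Grin2a at 14.3 ± 1.12, followed by Grin2c at 10.5 ± 0.855. The ratio of Grin2b to Grin2a in WT was 1.56 ± 0.0764, from 1.46 to 1.72. Grin3a and Grin2d lay close together, at 2.65 and 2.37 FPKM with overlapping ranges, and Grin3b was at 0.134. Grik5, a kainate subunit that needs partners to form channels, was the most abundant of its class at 37.8 ± 1.43 FPKM, above Grik3 (10.5), Grik2 (5.38), Grik4 (3.53) and Grik1 (1.64). Of the delta class, Grid1 was at 10.5 ± 0.468 FPKM.

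Metabotropic glutamate receptors were less abundant than the leading channels. Grm3, which astrocytes also express, led at 21.1 ± 1.24 FPKM, ahead of Grm5 at 18.2 ± 1.01, Grm2 at 16.2 ± 1.76 and Grm7 at 11.8 ± 0.519. Grm4 was at 5.54 and Grm8 at 1.27 FPKM. Among the alpha subunits of GABA-A receptors the order ran from Gabra3 (38.4 ± 1.83) through Gabra4 (20.8 ± 0.988), Gabra5 (14.0 ± 1.92) and Gabra2 (6.74 ± 1.18) to Gabra6, without overlap between neighbours. Of the beta subunits, Gabrb2 (31.9 ± 1.35) and Gabrb1 (10.8 ± 0.410) were likewise separate. The gamma subunits Gabrg3 (2.99) and Gabrg1 (2.69) had overlapping ranges, and Gabrd was at 28.2 ± 1.53, from 25.4 to 30.1. The gene length used for these values was the same as the union of the gene's exons in GENCODE M21 for 41 of the 46 genes, and differed for Grik1, Grik2, Grid1, Grm4 and Gabrr3.

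Many GABA-A genes lie side by side, and neighbours were not at like levels. On chromosome 11 Gabrb2 stood at 31.9 FPKM and its neighbour Gabra6 at 0.0422. On chromosome X (72255999 to 72842602, GRCm38) Gabra3 stood at 38.4 FPKM and its neighbours Gabre and Gabrq at 0.0238 and 0.0626. On chromosome 7, Gabra5 and Gabrg3 stood at 14.0 and 2.99 FPKM. The chromosome 5 cluster (70751047 to 72149037) held Gabra4, Gabrb1, Gabra2 and Gabrg1 at 20.8, 10.8, 6.74 and 2.69, and the pair on chromosome 4 (33062999 to 33163588) held Gabrr2 and Gabrr1 at 0.214 and 0.0159. The models of Gabra4 and Gabrb1 overlap by 196 bases on opposite strands. Exons of another gene lie over those of 20 receptor genes in GENCODE M21, the largest shares being Tmem259 over 32.1% of Grin3b and Grin1os over 13.5% of Grin1; the libraries were stranded by their kit, but whether counting used the strand was not stated in the labels. Gabrd and Grm4 have no such overlap.

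Counts of Gabra6 were near 0 in most libraries and not in all. It had 24 counts in male 2 of WT, 13 in male 1 of Q140 with Ccdc82-/- and 8 in male 2 of Ccdc82-/-, and 0 in 19 libraries. The same 3 libraries had the 3 highest sums of the 5 cerebellum markers, at 1.13, 0.410 and 0.327 FPKM. These libraries were singled out after their values were seen, and the part of cerebellar RNA in the other receptor genes was not tested.

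The receptor genes varied little between mice of 1 genotype and sex. The residual SD of log2 CPM had a median of 0.0811 over the 41 tested genes, against 0.117 over all genes tested. Gabbr1 varied least, with an SD of 0.0311, a value undercut by 0.469% of all genes tested, and Gria2 (0.0381) and Grin1 (0.0407) were also low. Higher counts give smaller SDs, and these are among the most abundant genes. The widest spread was that of Gabrr2 (0.432), Gabrq (0.418) and Grin3b (0.415), whose libraries held at most 39 counts. Grm8 (0.180), Gabra2 (0.157), Grm2 (0.140), Gabra5 (0.138), Grin2b (0.130), Grik1 (0.129) and Grik3 (0.124) also varied more than the median gene.

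Mice with Q140 were compared with mice without it, averaged over the 3 Ccdc82 genotypes, to ask how the Huntington's disease allele changed the cortex. Gabrd, the tonic GABA-A subunit, and Grm4, a presynaptic group III receptor, were lower with Q140, and no receptor gene was higher at the same threshold. Of the 41 genes, 2 were called in edgeR (quasi-likelihood test, Benjamini-Hochberg adjusted p under 0.05 over all genes tested), both lower, beside 168 of 19174 genes in all, which is 0.876%; 103 genes, 0.537% of those tested, were lower. The median log2 difference of the 41 was 0.00019, with 21 above 0 and 20 below, and 0.000854 over all genes tested. In bulk cortex fewer cells of a type and less RNA per cell cannot be told apart.

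Gabrd (ENSMUSG00000029054, chromosome 4, 155384980 to 155398112, minus strand, GRCm38) was measured at 74.0, 82.6 and 87.1 CPM (lowest, median and highest mouse, n = 8) in WT and at 72.1, 74.2 and 77.6 in Q140. All 8 Q140 mice lay below the WT median, and 6 of 8 WT mice lay above every Q140 mouse. Values were 68.8, 78.2 and 87.9 CPM in Ccdc82+/- and 69.4, 72.8 and 80.0 in Q140 with Ccdc82+/-. Here the ranges overlapped more, and 3 of 8 Ccdc82+/- mice lay above every mouse of Q140 with Ccdc82+/-. Male 1 of Ccdc82+/-, at 68.8, was the lowest of all 47 libraries, and 7 of 8 mice with Q140 lay below the median of those without. In Ccdc82-/- Gabrd stood at 76.7, 80.6 and 85.4 CPM and in Q140 with Ccdc82-/- (n = 7) at 70.7, 73.6 and 81.0. With Q140, 5 of 7 mice lay below the lowest Ccdc82-/- mouse.

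**Figure D2:**
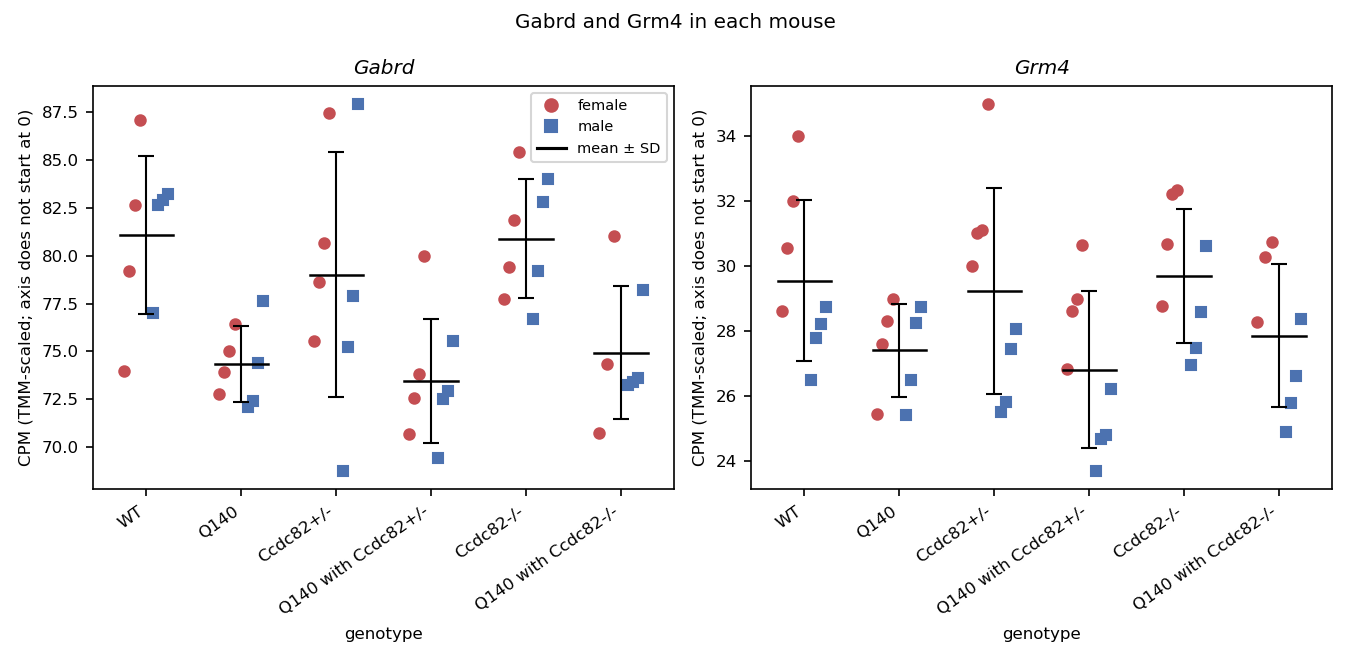
CPM of Gabrd (left) and Grm4 (right) in each mouse by genotype, females as circles and males as squares, with the mean and SD; the vertical axes do not start at 0. Gabrd lay between 69.4 and 81.0 CPM in the 23 mice with Q140 and between 68.8 and 87.9 in the 24 without, and Grm4 had a median of 30.3 CPM in females and 26.8 in males.

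Over all genotypes the Gabrd difference was -0.11 on the log2 scale (SE 0.021, 95% interval -0.15 to -0.072, adjusted p = 0.000885), so that the level fell by 7.54%. Each of the 23 mice with Q140 was below the mean of the mice of its sex and Ccdc82 genotype without Q140. The difference was -0.13 (SE 0.035) on WT, -0.105 (SE 0.035) on Ccdc82+/- and -0.11 (SE 0.037) on Ccdc82-/-. It was -0.11 (SE 0.031) in females and -0.11 (SE 0.030) in males. In the deposited FPKM, Gabrd averaged 27.9 ± 1.57 without Q140 (n = 24) and 25.9 ± 0.992 with it (n = 23). Leaving out any 1 of the 47 libraries, with scaling and dispersions still taken from all 47, kept the adjusted p between 8.74e-05 and 0.0023.

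Gabra4, a frequent partner of delta in the forebrain, differed by -0.01 (SE 0.018, 95% interval -0.042 to 0.032).

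Grm4 (ENSMUSG00000063239, chromosome 17, 27422387 to 27521403, minus strand) stood at 26.5, 28.7 and 33.98 CPM (lowest, median, highest) in WT and at 25.4, 27.9 and 28.99 in Q140. On Ccdc82+/- it stood at 25.5, 29.02 and 34.96 CPM without Q140 and at 23.7, 26.5 and 30.6 with it. On Ccdc82-/- it stood at 26.96, 29.7 and 32.3 without and at 24.9, 28.3 and 30.7 with it. The groups overlapped in each pair, and 18 of the 23 mice with Q140 lay below the median of those without.

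The Grm4 difference over all genotypes was -0.10 (SE 0.024, 95% interval -0.15 to -0.055, adjusted p = 0.0168), a level that fell by 6.91%, and 20 of 23 mice with Q140 were below the mean of their sex and Ccdc82 genotype without it. It was -0.105 on WT, -0.12 on Ccdc82+/- and -0.08 on Ccdc82-/-. The call was lost without a sex term (adjusted p = 0.144) and with the row of the library plate as a term (adjusted p = 0.102), an alternative added after the data were seen, and was kept in the other alternatives and without any 1 library. By sex the difference was -0.13 (SE 0.032) in females and -0.08 (SE 0.032) in males, and the test of that difference gave -0.05 (SE 0.046, adjusted p = 0.9998).

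Other receptor genes did not pass the test. At an unadjusted p under 0.05 there were 8 of 41, against 9.18% of all genes tested, and the next after Grm4 was Gria1, at 0.04 (SE 0.013, adjusted p = 0.175). Gria1 averaged 290 ± 7.90 CPM in WT and 304 ± 7.63 in Q140, with overlapping ranges. Grin1 ran from 711.9 to 790.5 CPM with a median of 764.5 without Q140 and from 688.2 to 794.8 with a median of 736.7 with it. Of the 23 mice with Q140, 22 lay below the median of those without, while the ranges overlapped. Set against the median of their own Ccdc82 genotype, 4 of 8 Q140 mice lay below WT. With Ccdc82+/- 8 of 8 did so, and with Ccdc82-/- 6 of 7. For Grin1 19 of 23 were below the mean of their sex and Ccdc82 genotype, and the difference was -0.03 (SE 0.012, adjusted p = 0.261). Grin2c was at -0.06 (SE 0.023, adjusted p = 0.265) and Grm2 at -0.09 (SE 0.040, adjusted p = 0.495). The intervals were narrow for many: 28 of the 41 lay wholly within 0.1 of 0 on the log2 scale, and 38 within 0.2. Gria2 was at 0.00 with an interval from -0.023 to 0.024, and its level was 842 ± 22.6 CPM without Q140 and 842 ± 23.1 with it. Gabbr1 had an interval of like width (-0.037 to 0.0040).

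**Figure D3:**
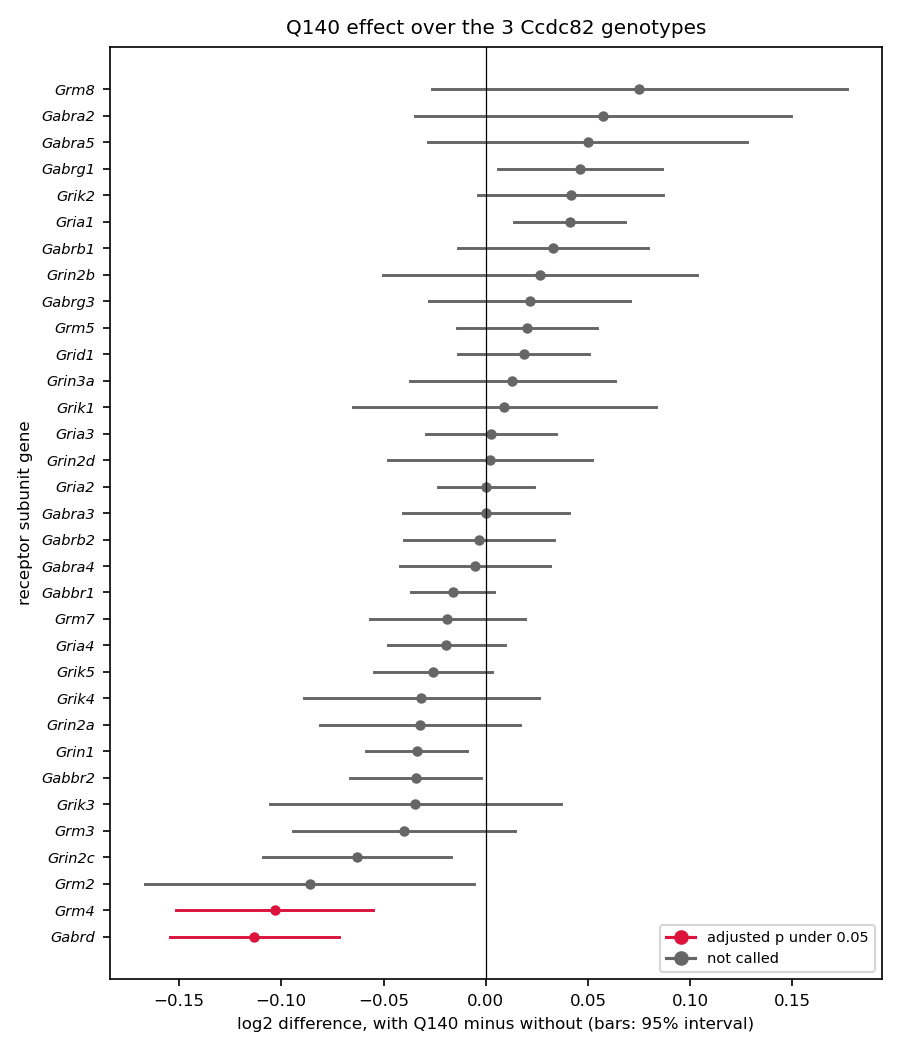
Log2 difference with Q140 minus without, over the 3 Ccdc82 genotypes, for 33 receptor genes with 95% intervals; Grin3b, Gabrr2 and Gabrq were left out for wide intervals. Gabrd and Grm4, at -0.11 and -0.10, are the 2 genes with an adjusted p under 0.05 in edgeR.

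Within a single Ccdc82 genotype no receptor gene was called. In Q140 against WT 0 of 41 were called by edgeR and by DESeq2, with 5 at an unadjusted p under 0.05 (6.93% of all genes), and 0.0313% of all genes were called by edgeR. Gabrd had the smallest p (-0.13, SE 0.035, adjusted p = 0.263), followed by Gria1 (0.07, SE 0.023, adjusted p = 0.425) and Grin2c (-0.11, SE 0.039, adjusted p = 0.498). With Ccdc82+/- in both groups the counts were 0 and 5 of 41, with 0.0313% of all genes called and 5.18% at an unadjusted p under 0.05, and Grm4 (-0.12), Gabrd (-0.105) and Gabbr2 (-0.07, SE 0.027) led. With Ccdc82-/- in both groups they were 0 and 1, with 0.0209% and 4.17% of all genes, and Gabrd (-0.11), Grm4 (-0.08) and Grin1 (-0.04, SE 0.022) led. DESeq2 called 0 members in these 2 comparisons as well.

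Htt lies on chromosome 5, as do Grm3 and the Gabrg1, Gabra2, Gabra4 and Gabrb1 cluster, the cluster at 35.8 to 36.7 Mb from it. None of these 5 passed the test, with differences of -0.04, 0.05, 0.06, -0.01 and 0.03. Gabrg1, a gamma subunit, had the smallest p of them (SE 0.020, adjusted p = 0.437).

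The genes that anchor and assist these receptors are given beside the 0.876% of all genes called with Q140. Of 22 auxiliary subunits and partners of glutamate receptors 1 was called, Olfm1, a secreted partner of AMPA receptors, at -0.07 (SE 0.017, adjusted p = 0.0298), and the list's median was -0.0088. Of 8 auxiliary proteins of GABA receptors 0 were called and 1 had an unadjusted p under 0.05, Kctd12, a GABA-B partner, at 0.06 (SE 0.021, adjusted p = 0.245), followed by Kctd8 at 0.07 (adjusted p = 0.611). Among 27 excitatory postsynaptic and trans-synaptic proteins, found in 28 rows since Dlg2 has 2, Nptxr, the neuronal pentraxin receptor, was called at -0.11 (SE 0.026, adjusted p = 0.0222). Of 10 inhibitory scaffold genes found, 0 were called and 0 had an unadjusted p under 0.05, and Gphn, which encodes gephyrin, was at -0.03 (SE 0.013, adjusted p = 0.594).

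Of 25 genes of glutamate and GABA synthesis and transport 2 were called, Glul, the glutamine synthetase of astrocytes, at -0.11 (SE 0.016, adjusted p = 2.15e-05), and Slc1a2, the main glutamate transporter of astrocytes, at -0.08 (SE 0.017, adjusted p = 0.0123). The list's median was -0.011, against 0.000854 over all genes tested.

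Markers of cell types were set beside these values. Camk2a, 1 of 5 excitatory neuron markers, was lower with Q140 (-0.08, SE 0.014, adjusted p = 0.000378). Of these 5 markers 2 lay above 0, and the median of the list was -0.021. Lamp5, 1 of 6 upper layer markers, was also lower (-0.11, SE 0.029, adjusted p = 0.0420). Of these 6 markers 1 lay above 0, and the median of the list was -0.066. Of 6 striatal markers 1 was higher while the other 5 lay below 0 (median of the list -0.029). The summed level of the excitatory neuron markers ran from 804 to 891 FPKM with Q140 and from 854 to 916 without it. That of the upper layer markers ran from 189 to 222 with Q140 and from 198 to 252 without it. The called genes Camk2a and Lamp5 are part of these sums. Striatal markers summed to between 40.6 and 51.8 FPKM with Q140 and between 35.5 and 47.3 without, a sum that includes the 1 marker called. Of 9 interneuron markers, 6 astrocyte markers and 5 microglia markers 0 were called, with 3 of each list at an unadjusted p under 0.05. The interneuron markers summed to between 460 and 520 FPKM with Q140 and between 466.3 and 536 without. No marker of these lists was at 0 in all libraries, and their part in the Gabrd and Grm4 differences was not tested.

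Loss of Ccdc82 was compared with its controls to ask whether it changed the receptors by itself or in Q140 mice. No receptor gene was called in any of these contrasts in edgeR or in DESeq2, where Ccdc82 itself was the 1 gene called of 19174, 0.00522%. Averaged over mice with and without Q140, 5 of 41 had an unadjusted p under 0.05 with Ccdc82-/- and 5 with Ccdc82+/-, against 4.65% and 5.31% of all genes tested. The medians of the 41 were 0.0196 and 0.0225, with 32 genes above 0 in each, against -0.000693 and -0.000506 over all genes. Of 6 astrocyte markers 0 lay above 0 in both contrasts (medians -0.057 and -0.048), with 0 called and 3 and 2 at an unadjusted p under 0.05, and of 7 deep layer markers 7 and 6 lay above 0, with 0 called and 0 and 1 at that p. The astrocyte markers summed to between 212 and 256 FPKM with both Ccdc82 copies, between 199 and 235 with Ccdc82+/- and between 204 and 234 with Ccdc82-/-, and the deep layer markers to between 47.3 and 59.6, 51.6 and 62.2, and 49.8 and 63.5. Their part in the receptor values was not tested. The contrasts share their control mice, so these counts are not independent of each other.

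With Ccdc82-/- the smallest p belonged to Gabrb2, a beta subunit of GABA-A receptors. It averaged 203 ± 9.68 CPM (190.7 to 217.4) in WT and 214 ± 7.07 (203.3 to 224.4) in Ccdc82-/-, and 206 ± 9.74 in Q140 and 214 ± 7.29 in Q140 with Ccdc82-/-, with overlap throughout. The averaged difference was 0.07 (SE 0.023, adjusted p = 0.9999), followed by Grm7 (0.06, SE 0.023). With Ccdc82+/- the order was Grik1 (0.12, SE 0.045, adjusted p = 0.905), Gria3 (0.05, SE 0.019) and Grik2 (0.06, SE 0.027), kainate and AMPA subunits. Against WT alone the smallest p were those of Gabrb2 (0.08), Grik3 (0.14, SE 0.060) and Grin2c (-0.08) with Ccdc82-/-, and of Gria1 (0.06), Gabra5 (0.14, SE 0.066) and Grm8 (0.17, SE 0.086) with Ccdc82+/-. At an unadjusted p under 0.05 there were 3 and 2 of 41, against 3.23% and 3.6% of all genes.

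In mice with Q140, Ccdc82-/- gave 2 of 41 receptor genes at an unadjusted p under 0.05 and Ccdc82+/- gave 4, against 4.09% and 5.42% of all genes. Grm7, a presynaptic group III receptor of low glutamate affinity, had the smallest p with Ccdc82-/-, at 66.3 ± 3.42 CPM in Q140 and 71.5 ± 3.44 in Q140 with Ccdc82-/- (0.11, SE 0.034, adjusted p = 0.997). With Ccdc82+/- Grik2 (0.10, SE 0.038), Grik1 (0.14, SE 0.063) and Grin3a (0.09, SE 0.043) led. For Gabrd, the averaged difference with Ccdc82 loss was 0.00 (SE 0.025, interval -0.046 to 0.056) with Ccdc82-/- and -0.03 (SE 0.025, interval -0.078 to 0.022) with Ccdc82+/-. Gria4, at 8.45 Mb from Ccdc82 on chromosome 9, differed by 0.02 (SE 0.018) with Ccdc82-/- and by 0.02 (SE 0.017) with Ccdc82+/-.

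**Figure D4:**
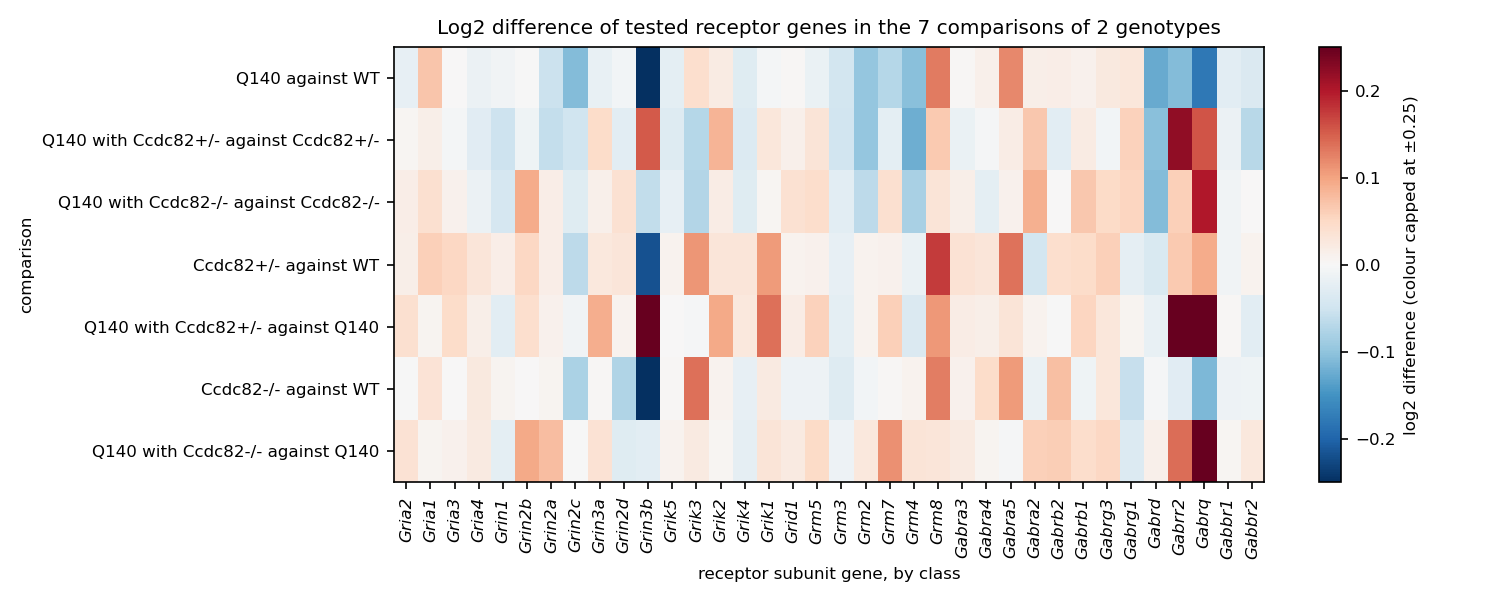
Log2 difference of 36 tested receptor genes (columns, by class) in the 7 comparisons of 2 genotypes (rows), with colour capped at 0.25 in either direction. Gabrd and Grm4 are negative in the 3 comparisons of Q140 with its control, and the extreme colours of Grin3b, Gabrr2 and Gabrq belong to genes with at most 39 counts in a library.

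The interaction tests asked whether the Q140 difference changed when Ccdc82 was lost. With Ccdc82-/- 0 of 41 receptor genes and 0% of all genes were called by edgeR, 0 by DESeq2, and 1 receptor gene, Grm7 (0.11, SE 0.0465, adjusted p = 0.9998), had an unadjusted p under 0.05 (2.96% of all genes), ahead of Grm5 (0.06, SE 0.042) and Grin2c (0.08, SE 0.056). With Ccdc82+/- the counts were 0 in both tools and 0 at an unadjusted p under 0.05 (3.51% of all genes), and the smallest p were those of Gria1 (-0.05, SE 0.033), Grin3b (0.47, SE 0.30) and Grin1 (-0.04, SE 0.030). For Gabrd the interaction was 0.02 (interval -0.086 to 0.12) with Ccdc82-/- and 0.02 (interval -0.080 to 0.12) with Ccdc82+/-. The upper ends of these intervals, near 0.12, stand beside a Q140 difference of -0.13 on WT. The sex difference of the Q140 effect gave 0 calls by edgeR and DESeq2 and 0 of 41 at an unadjusted p under 0.05 (4.01% of all genes), with Gabrq (-0.35, SE 0.27), Grik2 (0.06) and Gabbr2 (-0.04) first.

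Females were compared with males over all genotypes. Grm4, Gabrb1, Gria4 and Grm3 were higher in females and no receptor gene was lower at the threshold. These 4 of 41 genes are to be read beside 2017 genes called of 19174, which is 10.5%, with 5.26% higher. At an unadjusted p under 0.05 there were 11 of 41 and 26% of all genes. DESeq2 called 6 of the receptor genes, beside 2426 of 17315 genes in all, which is 14%. The median of the 41 was 0.00856, against 0.001 over all genes tested.

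Grm4 ran from 25.5 to 34.96 CPM with a median of 30.3 in 23 females and from 23.7 to 30.6 with a median of 26.8 in 24 males. All but 1 of the 24 males lay below the female median, and 10 females lay above every male. The difference was 0.16 (SE 0.024, adjusted p = 1.71e-05), a level 11.5% higher in females. It stayed called in every alternative run except that with 2 surrogate variables (0.08, adjusted p = 0.0943).

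Gabrb1 (chromosome 5, 71658113 to 72149037), a beta subunit, ran from 141.8 to 172.4 CPM with a median of 157.3 in females and from 133.0 to 167.0 with a median of 151.6 in males. The groups overlapped, with 21 of 24 males below the female median, and the difference was 0.08 (SE 0.023, adjusted p = 0.0261). Gria4 (chromosome 9, 4417896 to 4796234), an AMPA subunit found in interneurons among other cells, ran from 143.4 to 166.3 CPM with a median of 152.4 in females and from 140.5 to 160.8 with a median of 148.9 in males. With 18 of 24 males below the female median, the difference was 0.04 (SE 0.014, adjusted p = 0.0372). Grm3 (chromosome 5, 9485541 to 9725170), a group II receptor, ran from 57.6 to 74.3 CPM with a median of 63.7 in females and from 56.1 to 67.6 with a median of 61.6 in males, a difference of 0.08 (SE 0.027, adjusted p = 0.0467) with 20 of 24 males below the female median.

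The last 3 calls lay near the threshold: over 8 alternatives Grm3 lost its call in 7, and Gabrb1 and Gria4 in 5 each. Grm4 was the 1 receptor gene called with the plate row as a term or with no filter on low counts (9.12% and 4.32% of all genes). The same held with the FPKM tested by limma-trend, or with a random block for the number in the library name (11.6% and 4.44%). Gabrb1 had an adjusted p between 0.0141 and 0.0772 over its 8 alternatives. Each of the 19 library-name numbers, whose meaning the labels do not give, holds mice of 1 sex, so no difference between the sexes could be taken within a number. Libraries of 1 number had a consensus correlation of 0.142 in the fit with that block. With it, all genes called between the sexes went from 2017 to 852, and those called with Q140 over all Ccdc82 genotypes from 168 to 195. Grm7 (0.05, SE 0.019, adjusted p = 0.0516) and Gabra2 (0.12, SE 0.046, adjusted p = 0.0774) came next. Grin1 was at -0.02 (SE 0.012), Gria2 at -0.01 (SE 0.012) and Gabrd at 0.02 (SE 0.021), and did not pass.

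**Figure D5:**
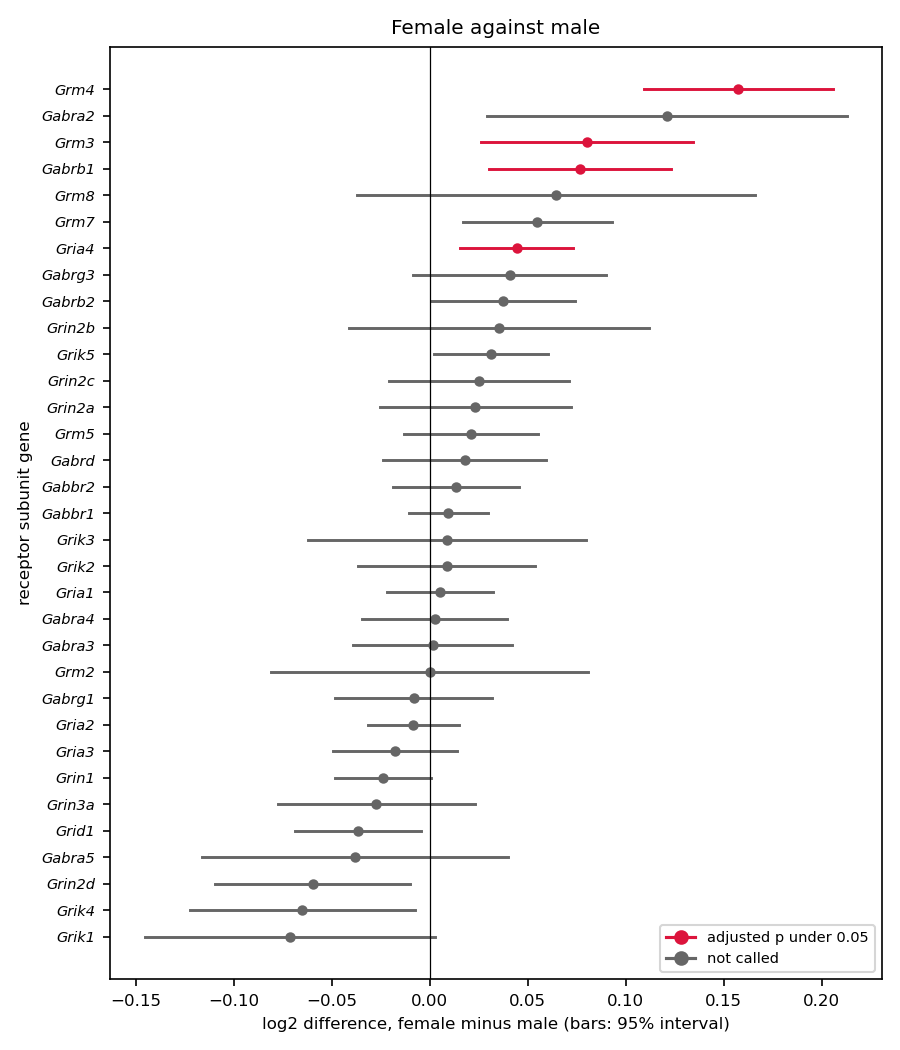
Log2 difference, female minus male, over all 47 mice for 33 receptor genes with 95% intervals; Grin3b, Gabrr2 and Gabrq were left out for wide intervals. Grm4 is highest at 0.16, and Grm3, Gabrb1 and Gria4 are the other genes with an adjusted p under 0.05 in edgeR.

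Around the receptors, 6 of 22 auxiliary subunits and partners of glutamate receptors were higher in females and 0 lower, with a median of 0.046. These counts and those of the next lists stand beside 5.26% of all genes higher in females and 10.5% called in either direction. Named by smallest p they were Cnih2, a cornichon protein that exports AMPA receptors (0.10, SE 0.019, adjusted p = 0.000629), Frrs1l (0.05), Cacng3, a transmembrane AMPA regulatory protein (0.08), Abhd6 (0.10), Olfm2 (0.06) and Prrt1 (0.08). Of the 28 rows of excitatory postsynaptic genes 4 were higher, among them Dlg4, which encodes PSD-95 (0.07, SE 0.013, adjusted p = 0.000689), Dlg2 (0.04), Dlgap2 (0.06) and Shank2 (0.13), and 1 was lower, Dlgap1 (-0.05, SE 0.010). Kctd12 (0.07) and Kctd16 (0.09), partners of GABA-B receptors, were 2 of 8 GABA auxiliary genes called, and Trak1 (0.09), a transport adaptor, was 1 of 10 inhibitory scaffold genes.

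Genes of GABA handling were called in both directions. Gad1 (-0.06, SE 0.015, adjusted p = 0.00563) and Gad2 (-0.05, SE 0.013, adjusted p = 0.00802), the enzymes that make GABA, were lower, and Abat, which breaks it down, was higher (0.07, SE 0.018, adjusted p = 0.0135). Of the 25 genes of the list 4 were called, these among them, and its median was 0.0095. Of 9 interneuron markers 3 were lower, Gad1, Gad2 and Adarb2 (-0.10, SE 0.024), with sums from 462 to 527 FPKM in females and from 460 to 536 in males. Of 6 astrocyte markers 1, of 4 endothelial markers 2 and of 4 oligodendrocyte precursor markers 1 were higher in females, the last with sums from 21.5 to 29.3 FPKM in females and from 19.8 to 23.8 in males. Calb1, 1 of 6 upper layer markers (0.09), and Fibcd1, 1 of 4 hippocampal markers (0.15), were higher and Ppp1r1b, 1 of 6 striatal markers, lower (-0.10). No marker of these lists was at 0 in all libraries, and their part in the receptor differences was not tested.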

How the data were processed

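Cortex RNA from 47 mice was extracted with Qiagen RNeasy and sequenced from Illumina TruSeq stranded libraries, per the labels' protocols. Alignment and counting tools listed in the submitters' processing notes are HTSeq 0.12.3, STAR 2.7.5c and SAMtools 1.10, with GRCm38 as the build. The annotation release and the strand setting of counting are not given. The authors deposited whole-number counts per gene and, per the file headers, FPKM for the same genes and libraries. Every value column was matched to a labelled mouse (0 unmatched).

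Genes were kept by edgeR's filterByExpr (minimum count 10, minimum total 15), TMM-scaled and fitted with edgeR 4.0.16 (R 4.3.3; robust quasi-likelihood test) on 6 genotype means and sex over all 47 libraries, with Benjamini-Hochberg adjustment over 19174 genes and a threshold of 0.05. Levels are TMM-scaled CPM (counts scaled to library size) or the deposited FPKM. FPKM compare genes, CPM compare mice. Totals of 43554594 to 61370843 counts per library set the precision, and gene lengths follow the deposited values.

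Alternatives were DESeq2 1.42.0, RLE normalization, no filter, no sex term, plate column as a factor, the compared groups alone, the replicate label as a block, the number in the library name as a random block (limma 3.58.1), limma-trend on log2(FPKM + 0.1) and 2 surrogate variables (sva 3.50.0). Plate row as a factor and leaving out each library were added after seeing the data. The edgeR fit of the Q140 difference over all Ccdc82 genotypes was checked on simulated counts, and the limma and DESeq2 fits were not.

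The members and the lists of pathway and marker genes were chosen with earlier results of these data known. The text names Grin1, Gria2, each called member, the most abundant member of each class in WT, the 3 members of smallest p in each comparison, the members that varied most and least between mice and, for lists, called genes up to 5 and the 2 of smallest p where none was called. Other genes named (Grm2, Gabra4, Prrt1 and the members near Htt) were chosen after their values were seen. Gria1, Grin2c, Gabbr1 and Gria4 fall under the rule, and some of the sentences on them were also chosen after their values were seen. Some genes that the rule picks are not reported here by name, though counts and medians over lists include them. Replicates of 1 group differed beyond counting noise (chi-square per gene 3.86 to 23.7), so each library counts once. Whether mice with the same replicate label share a litter, batch or day is not stated in the labels.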

Additional observations from a re-analysis of the deposited data

Results flagged for a closer look

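Single mice were screened in only part of the 41 tested receptor genes, with 6 genotypes for each gene examined. In 7 of these 132 genotype groups, the highest or lowest mouse lay further from the others than Dixon's 95% limit allows. Chance alone gives about 1 in 20. Female 1 of Ccdc82+/- was set apart for 2 genes: Gria4 was highest at 166.3 CPM (next 156.5) and Grin1 lowest at 725.3 (next 761). Male 1 of WT was highest for Gria3 at 292.5 CPM (next 274.7). Male 4 of Q140 with Ccdc82+/- was lowest for Grm8 at 11.1 CPM (next 14.8) and for Gabra5 at 36.6 (next 45.2). Grm8 was also lowest in male 2 of Q140, at 11.97 CPM (next 13.5). Grik3 was lowest in female 4 of Ccdc82+/-, at 86.3 CPM (next 100.7). No mouse was set apart for Gabrd or Grm4.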

How the results depend on the processing

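The count of receptor genes called with Q140 over all Ccdc82 genotypes went from 2 to 1 with no sex term (Grm4 at -0.11, adjusted p = 0.144) and with plate row as a factor (-0.09, adjusted p = 0.102), where Gabrd was kept. All genes called went from 168 to 140 with no sex term, to 97 with plate row and to 419 with 2 surrogate variables. Over 10 alternatives Gabrd lay between -0.11 and -0.10 with an adjusted p from 3.66e-05 to 0.00396. Q140 against WT gave 1 call, Gabrd, with 2 surrogate variables (-0.16, adjusted p = 0.00849), beside 0.214% of all genes, and 0 otherwise. Receptor genes called between the sexes went from 4 to 1 with no filter on low counts or plate row (4.32% and 9.12% of all genes called). They also went to 1 with limma-trend on FPKM (11.6% of all genes) or a random block for the number in the library name (4.44%). With 2 surrogate variables they went to 2 (2.21% of all genes), and Grm4 was at 0.08 (adjusted p = 0.0943). The main fit called 10.5% of all genes. Leaving out each library gave 2 to 5 calls between the sexes and 2 to 2 with Q140. The 2 came without male 2 of Ccdc82-/-, female 1 of Ccdc82+/-, male 3 of Q140, male 1 or 3 of Q140 with Ccdc82-/-, or male 3 or 4 of Q140 with Ccdc82+/-. Gria4 was not called in 11 of these 47 fits and Grm3 in 29. The replicate block left 2 receptor genes called with Q140 (154 genes in all) and changed no count of receptor genes. Pairs with 1 label had correlations from -0.25 to 0.29, with a median of -0.0146. The median was -0.0252 for pairs of other labels, of the same sex and other genotypes. Of 47 libraries, 18 matched their own label best. Whether mice with 1 label share more than a number was not tested. No result reversed.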
